A study of Mus musculus with 4 samples.

Results

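The semaphorins, their plexin and neuropilin receptors, and the Eph receptors with their ephrin ligands were examined in ribosome-bound RNA of midbrain dopamine neurons. Members are the genes with a single-symbol probe set whose symbol belongs to Sema3 to Sema7, Plxna to Plxnd, Nrp1 and Nrp2, Epha, Ephb, Efna or Efnb. The pattern gave 53 of the 18193 genes on the array, measured by 124 of 45037 probe sets, and each gene is represented by its brightest probe set on average. The 53 comprise 7 secreted class 3 semaphorins, 13 membrane semaphorins of classes 4 to 7, 2 neuropilins, 10 plexins (among them Plxna4os1, an opposite-strand transcript that the name pattern takes in), 9 EphA and 4 EphB receptors, and 5 ephrin-A and 3 ephrin-B ligands.

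TRAP RNA (translating ribosome affinity purification, replicates 2 and 4) was set against input RNA of the whole midbrain (replicates 1 and 2). Every array came from a pool of 5 adult mice of both sexes, 6 to 12 weeks old, so an array carries no information on a single animal. Both fractions came from the Slc6a3 JD1640 TRAP line, in which an EGFP/RPL10A ribosomal fusion protein is produced under the control of the dopamine transporter gene Slc6a3 carried on a BAC. The mice carried the transgene as trans-heterozygotes, on descendants of FVB founders crossed to C57BL6/j. In the sample labels input is called unbound (total) RNA, and the name used here is that of the study. Input also contains the dopamine neurons' own RNA.

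Semaphorins are guidance cues of growing axons. Class 3 members are secreted. Most of them act through a complex of a neuropilin, which binds the ligand, and a class A plexin, which signals into the cell. Membrane semaphorins usually bind plexins directly. Eph receptors are receptor tyrosine kinases that respond to ephrins on neighbouring cells, GPI-anchored ephrin-A ligands mostly binding EphA receptors and transmembrane ephrin-B ligands mostly binding EphB receptors. Both systems steer dopamine axons during development and act at synapses and on glia and vessels of the adult brain.

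Levels are given in arbitrary expression units, 2 raised to the deposited log2 value. They are compared only within a gene, apart from sums over marker lists. Background was set at 50 units. A gene is termed above background if both TRAP arrays or both input arrays reached 50 units, and where both arrays of the dimmer fraction lay under 50 units the fold is a lower bound against 50 units, written as at least that fold. TRAP was compared with input with limma across all 45037 probe sets, p-values being adjusted after Benjamini and Hochberg and called under 0.05 (SE, standard error of the log2 fold change), and "rose" and "fell" are kept for genes past that threshold. Nothing in the labels says more about independence than separate pools, and the p-values measure the spread between 2 pools of a fraction. The study took input in parallel from each replicate. TRAP replicate 2 and input replicate 2 may therefore come from the same mice, while the fit treats all arrays as independent.

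As a check of the labels, all 7 dopamine neuron markers rose, Th, which encodes tyrosine hydroxylase, being at 16613 and 20947 units in TRAP and at 326 and 386 units in input. The share of probe sets at 50 units or more was 35.2% to 35.8% on the 4 arrays, but the fractions differed in distribution, with medians over all probe sets of 7.28 and 7.13 units in TRAP and 10.2 and 10.1 units in input. Over all genes above background the median log2 fold change was 0.44. After quantile normalization the median shifted by -0.39, and after centring of the arrays on bright probe sets by -0.41.

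Of the 53 members, 40 were above background, 12 lay under 50 units on all 4 arrays and 1, Epha3, reached 50 units on a single TRAP array. Both TRAP arrays reached 50 units for 34 members and both input arrays for 37. In TRAP RNA 8 of the 40 fell (20%, where 6.87% of all 10014 genes above background fell) and 0 rose (where 18.7% of all genes rose). Of these 8, Sema3a, Sema3c, Sema6a, Plxnb1 and Ephb3 were above background through input alone, so 5 of the 8 entered the count by way of the fraction in which they are high, and the shares are a description. Before adjustment, limma gave p under 0.05 for 11 lower and 2 higher members. The genes that fell were Sema3a, Sema3c, Sema3f, Sema6a, Nrp1, Nrp2, Plxnb1 and Ephb3. With the arrays centred on bright probe sets 16 members fell and 2, Sema4g and Epha10, rose. In a fit of the probe sets above background alone 13 fell, and the same 2 rose. Centring also gave 3745 higher and 3867 lower probe sets above background, against 3213 and 1559 without it. With levels under 50 units raised to 50 in every probe set, Sema3f and Nrp2 were the 2 of the 8 that still passed, in a fit where 59.5% of probe sets had no spread and whose variance prior limma reported as unreliable.

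Both TRAP arrays lay below both input arrays for 18 of the 40 members (45%, where 23.6% of all genes above background did so), and above both for 9 (22.5%, where 52.3% did). The median log2 fold change of the 40 was -0.29, or -0.28 with levels under 50 units set to 50, beside 0.44 and 0.42 for all genes. Of the 40 members, 29 lay below the median of all genes and 11 above it. By family, log2 fold changes were negative in 4 of 4 class 3 semaphorins, 2 of 2 neuropilins, 5 of 8 plexins, 7 of 13 membrane semaphorins and 4 of 6 EphB and ephrin-B genes above background, and positive in 3 of 4 EphA receptors and 2 of 3 ephrin-A ligands. Over all genes above background 6592 were positive and 3422 negative. The members were split into 16 positive and 24 negative, or 11 and 29 with the arrays centred. Sema3a, Sema3c, Sema6a, Plxnb1 and Ephb3 lay under 50 units on both TRAP arrays, and Sema4c on both input arrays. Over all genes above background 461 and 471 did so. Genes of this kind could lie on 1 side only, and Sema3a and Sema3c are 2 of the 4 class 3 semaphorins. These counts and shares are therefore a description.

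The 2 input arrays differed in these genes. Input replicate 2 was the higher one for 32 of the 40 members and input replicate 1 for 7, whereas over all genes above background the split was 4903 and 4886. Without input replicate 1 the members' median log2 fold change was -0.56, with 29 negative. Without input replicate 2 it was -0.04, with 20 negative and 20 positive. Calls also moved with 1 array left out. Such a fit has 1 residual degree of freedom and takes its spread from the 2 arrays of the other fraction alone. Which members pass there thus turns largely on how close those 2 values lie, and a pass does not show that a call is stable.

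**Figure D1:**
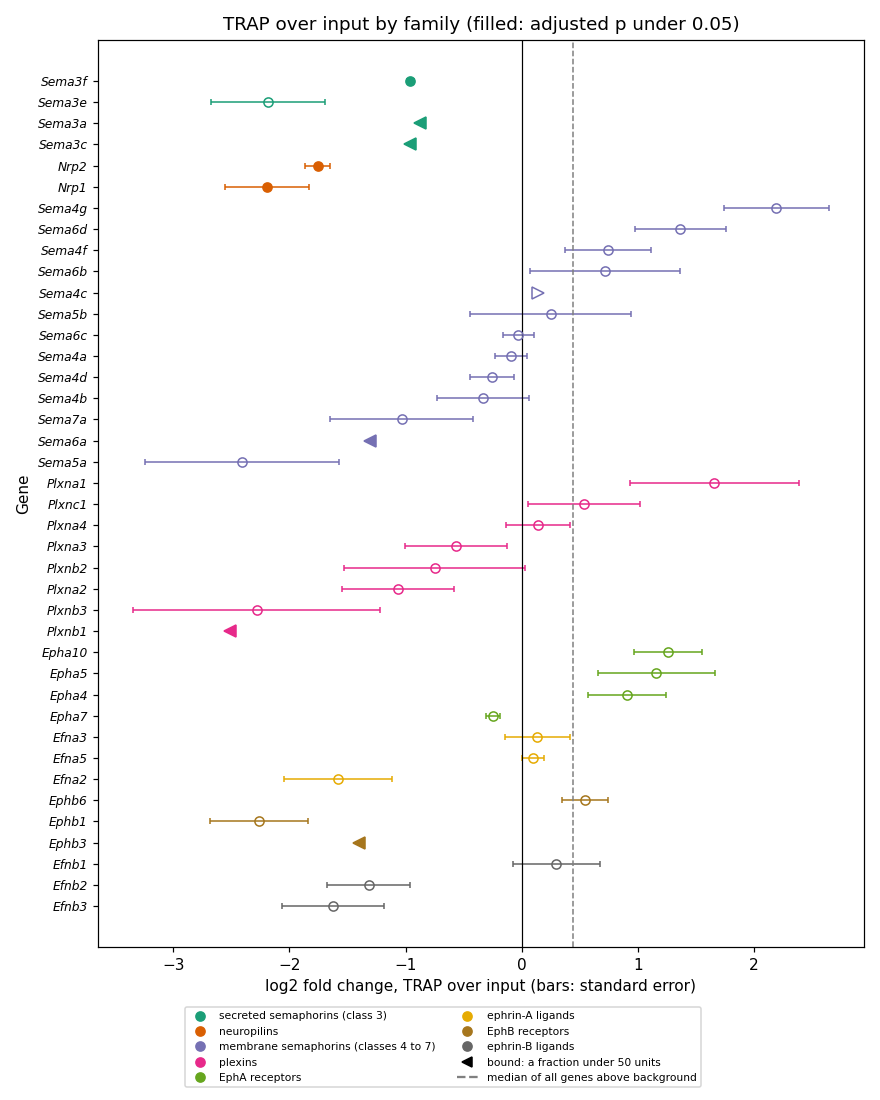
Log2 fold change of TRAP over input (horizontal axis) for the 40 members above background, by family. Circles are fitted values with standard errors, triangles are bounds where a fraction lay under 50 units on both arrays, filled symbols passed an adjusted p of 0.05, and the dashed line is the median of all genes above background (0.44). All 8 filled symbols lie left of 0.

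The secreted semaphorins above background were lower in TRAP without exception. Sema3a, a repellent that binds Nrp1, was at 10.4 and 10.3 units in TRAP and at 117 and 71.4 units in input. This was a fall to less than background, at least 1.83-fold (limma adjusted p = 0.0192). Sema3c, which binds both neuropilins, was at 12.9 and 7.64 units in TRAP and at 102 and 92.2 units in input, and fell at least 1.94-fold (limma adjusted p = 0.0201). For both genes TRAP was under background, and they were above background in input alone.

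Sema3f, the ligand best known for binding Nrp2, stayed measurable in TRAP. It was at 101 and 96.8 units in TRAP and at 192 and 192 units in input, and it fell by 0.96 on the log2 scale (SE 0.03, limma adjusted p = 0.00177). Its input arrays hold 1 identical value, so no spread was seen in that fraction. The further Sema3f probe sets lay under background, at 4.73 and 4.71 units in TRAP and at 5.38 and 4.59 units in input. Sema3e, which binds plexin D1 without a neuropilin, was at 128 and 112 units in TRAP and at 780 and 379 units in input. The groups did not overlap, the log2 fold change was -2.18 (SE 0.49) and limma gave an adjusted p of 0.0717. It passed in 5 of 11 alternatives, among them without input replicate 2, where the spread is that of its 2 TRAP values alone. Its receptor gene Plxnd1 was between 7.43 and 11.6 units on all 4 arrays, under background. The calls of Sema3a were lost without TRAP replicate 2 or 4 (limma adjusted p = 0.127 and 0.130), and those of Sema3c without input replicate 1 or 2 (limma adjusted p = 0.123 and 0.120).

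Both neuropilins fell, which made them the family in which every member was called. Nrp1, a co-receptor of class 3 semaphorins and of VEGF that vessels also carry, was at 217 and 127 units in TRAP and at 738 and 779 units in input. That is a log2 fold change of -2.19 (SE 0.36, limma adjusted p = 0.0427), or 4.57-fold lower. Nrp2, the co-receptor used by Sema3f, was at 113 and 113 units in TRAP and at 351 and 413 units in input (log2 fold change -1.75, SE 0.11, limma adjusted p = 0.0070), or 3.38-fold lower. Both remained above background in TRAP. The 2 TRAP values of Nrp2 are identical.

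The other probe sets of the neuropilins ran the same way. The 3 Nrp1 probe sets above background had log2 fold changes of -2.43, -2.38 and -2.19, and the 3 Nrp2 probe sets were all lower in TRAP, 2 of them past the threshold. The dimmer Nrp2 probe sets were under background in TRAP, at 31.0 and 31.0 units and at 30.4 and 18.3 units. They were above background through input alone and could only be lower. Nrp1 lost its call without input replicate 1 (limma adjusted p = 0.180) or input replicate 2 (limma adjusted p = 0.189), and Nrp2 without TRAP replicate 2 (limma adjusted p = 0.0896) or TRAP replicate 4 (limma adjusted p = 0.0913). With each of the TRAP and input arrays left out in turn, log2 fold changes ran from -2.58 to -1.80 for Nrp1 and from -1.87 to -1.64 for Nrp2.

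Since the neuropilins moved together, the 250 bases before their annotated start sites are shown (RefSeq, GRCm38.p6, plus strand, chr8:128358823-128359072 for Nrp1 and chr1:62703067-62703316 for Nrp2), 5′ to 3′, with the GC box GGGCGG of Sp1-family factors, on either strand, in capitals.
Nrp1: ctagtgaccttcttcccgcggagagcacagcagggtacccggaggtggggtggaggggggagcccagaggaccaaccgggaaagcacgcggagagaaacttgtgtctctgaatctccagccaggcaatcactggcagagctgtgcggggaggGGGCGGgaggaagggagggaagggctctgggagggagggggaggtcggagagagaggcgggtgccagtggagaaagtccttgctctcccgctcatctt
Nrp2: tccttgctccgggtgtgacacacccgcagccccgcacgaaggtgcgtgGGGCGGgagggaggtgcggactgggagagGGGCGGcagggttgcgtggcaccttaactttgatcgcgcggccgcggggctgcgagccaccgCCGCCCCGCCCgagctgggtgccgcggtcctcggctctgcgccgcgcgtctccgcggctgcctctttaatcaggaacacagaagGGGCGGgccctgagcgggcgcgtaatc
The Nrp1 stretch holds 1 such match and the Nrp2 stretch 5, of which 1 pair overlaps by a base, and 64.4% and 72.4% of their bases are G or C, against a median of 55.6% over protein-coding genes. RefSeq windows were matched for 46 of the 53 members, 60 windows in all. The GC box was found in 46 of these 60 windows (76.7%), in 32.7% of all 32851 windows and in 42.6% of those of protein-coding genes. Elements named for factors of dopamine neurons were also searched on both strands: AAAGGTCA (NR4A), TGTTTAC (FOXA) and TAATCC (PITX). They were found in 0 of the 60 member windows, and in 1.34%, 3.17% and 6.25% of all windows. Of the windows of protein-coding genes, 1.20%, 2.62% and 5.81% held them. At such shares few matches are to be found in 60 windows. A match of letters is a description of the sequence only.

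**Figure D2:**
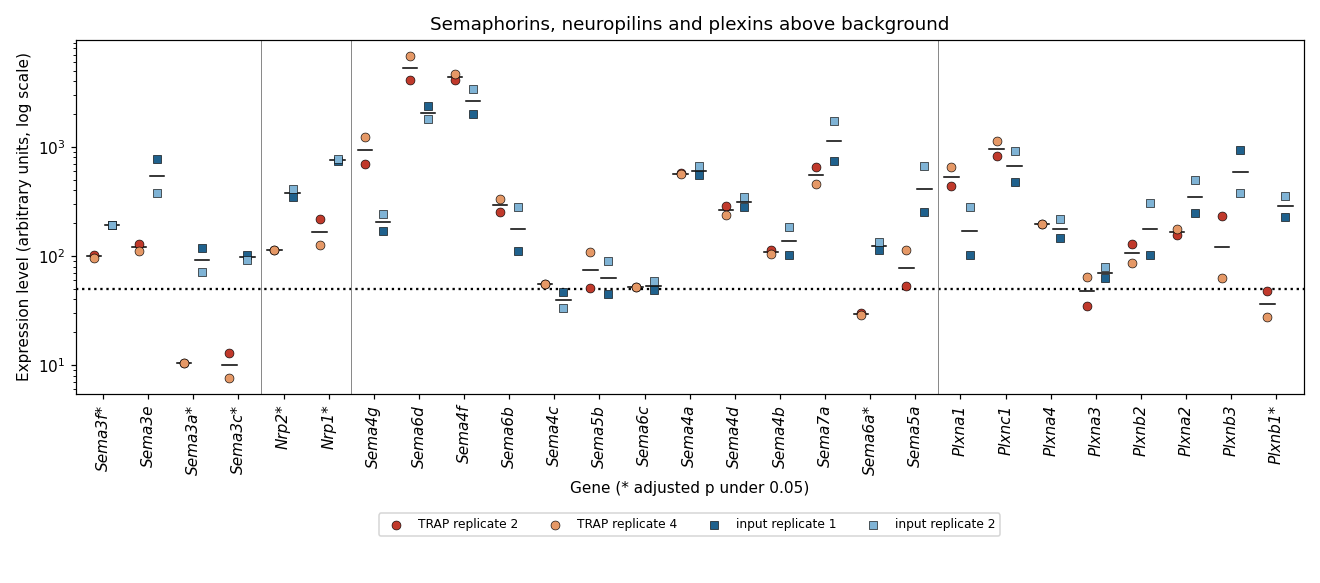
Expression level (vertical axis, arbitrary units, log scale) of the semaphorins, neuropilins and plexins above background on each array. Circles are TRAP, squares are input, short lines are means on the log scale, the dotted line is 50 units, vertical lines part the families and an asterisk marks an adjusted p under 0.05. Nrp1 lies at 127 to 217 units in TRAP and at 738 to 779 units in input.

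The 13 membrane semaphorins, all above background, were divided, with 6 positive and 7 negative log2 fold changes. Sema4g, a transmembrane class 4 semaphorin, had the largest positive log2 fold change of the 40 members. It was at 701 and 1231 units in TRAP and at 169 and 245 units in input. The fractions stood well apart, at a log2 fold change of 2.19 (SE 0.45), yet the limma adjusted p was 0.0616. The call was made with the arrays centred (limma adjusted p = 0.0225), in the fit of probe sets above background only (limma adjusted p = 0.0250) and with an intensity trend (limma adjusted p = 0.0323).

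Sema6d, a ligand of plexin A1, was at 4082 and 6848 units in TRAP and at 2349 and 1792 units in input (log2 fold change 1.37, SE 0.39, limma adjusted p = 0.0910). Sema4f, another of class 4, was at 4126 and 4612 units in TRAP and at 1996 and 3414 units in input (log2 fold change 0.74, SE 0.37, limma adjusted p = 0.211). In both the lower TRAP array exceeded the higher input array, and neither passed under any of the 11 alternatives.

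Sema6a and Sema5a stood at the other end. Sema6a, which binds plexins A2 and A4, was at 30.0 and 28.8 units in TRAP and at 113 and 135 units in input, and it fell by a factor of 2.47 or more (limma adjusted p = 0.0067). Without TRAP replicate 2 or 4 the limma adjusted p was 0.0842 and 0.0882. Sema5a, a ligand with thrombospondin repeats that binds class A plexins and plexin B3, was at 52.9 and 113 units in TRAP and at 252 and 671 units in input (log2 fold change -2.41, SE 0.83, limma adjusted p = 0.123). The groups did not overlap, but the spread within each was wide.

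Of the remaining membrane semaphorins, Sema7a, the GPI-anchored ligand of plexin C1, was at 658 and 461 units in TRAP and at 737 and 1728 units in input (log2 fold change -1.03, limma adjusted p = 0.270). Sema4a, Sema4b, Sema4d, Sema5b, Sema6b and Sema6c overlapped between the fractions, with log2 fold changes between -0.33 and 0.72. Sema4c was at 55.0 and 55.0 units in TRAP and under background in input, at least 1.10-fold higher (limma adjusted p = 0.191).

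Plexin B1 fell most clearly among the receptors of membrane semaphorins. Plxnb1, the receptor of Sema4d, was at 47.4 and 27.5 units in TRAP and at 229 and 354 units in input. That is a fall by a factor of 5.69 or more (limma adjusted p = 0.0388), and its second probe set above background fell too (limma adjusted p = 0.0352). The second one was at 12.7 and 6.15 units in TRAP and at 84.3 and 98.3 units in input. Both probe sets were above background through input alone and could only be lower in TRAP. The call on the brighter probe set was lost whichever array was left out (limma adjusted p between 0.123 and 0.156). Its ligand gene Sema4d was at 290 and 236 units in TRAP and at 283 and 345 units in input, with overlapping fractions (log2 fold change -0.26, limma adjusted p = 0.346).

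Plxnb3, the plexin typical of oligodendrocytes, was at 234 and 63.5 units in TRAP and at 932 and 376 units in input (log2 fold change -2.28, SE 1.06, limma adjusted p = 0.193). Its TRAP replicate 2 exceeded its TRAP replicate 4 by 1.88 log2 units, the widest gap between the TRAP arrays among the 40 members. All 6 oligodendrocyte markers above background were also higher on TRAP replicate 2 (median difference 1.30 log2 units). The part of oligodendrocyte RNA in the Plxnb3 values was not tested. Only Sema5a and Sema5b, both higher on TRAP replicate 4, also differed by more than 2-fold between the TRAP arrays.

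Of the class A plexins, which carry the signal of neuropilin complexes, none of those above background (Plxna1, Plxna2, Plxna3 and Plxna4) passed. Plxna1 was at 436 and 655 units in TRAP and at 103 and 280 units in input (log2 fold change 1.66, SE 0.73, limma adjusted p = 0.177). Plxna4 was at 195 and 198 units in TRAP and at 145 and 219 units in input (log2 fold change 0.14, limma adjusted p = 0.691). Plxna2 was at 156 and 178 units in TRAP and at 245 and 498 units in input (log2 fold change -1.07, limma adjusted p = 0.185), and Plxna3 overlapped between the fractions near background. The difference between plexins and neuropilins was not itself tested.

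Plxnc1, the receptor of Sema7a, was at 825 and 1130 units in TRAP and at 481 and 923 units in input (log2 fold change 0.53, SE 0.48, limma adjusted p = 0.421). Plxnb2, a receptor of class 4 semaphorins, was at 130 and 86.2 units in TRAP and at 103 and 306 units in input (limma adjusted p = 0.474). Both overlapped between the fractions.

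The EphA receptors had the highest median of the families, 1.03 on the log2 scale over the 4 members above background, and 0 of the 4 passed (before adjustment, limma gave p under 0.05 for Epha10, higher, and Epha7, lower). Epha5, a receptor of ephrin-A ligands in forebrain and midbrain neurons, was at 3912 and 6681 units in TRAP and at 1761 and 2981 units in input (log2 fold change 1.16, SE 0.50, limma adjusted p = 0.174). Epha4, which binds ligands of both classes, was at 1186 and 1858 units in TRAP and at 881 and 710 units in input (log2 fold change 0.91, SE 0.33, limma adjusted p = 0.136). On these brightest probe sets both TRAP arrays lay above both input arrays for each gene. The dimmer Epha5 probe sets did not overlap either, whereas the dimmer Epha4 probe sets above background all overlapped between the fractions. The brightest of those was at 483 and 1524 units in TRAP and at 219 and 838 units in input.

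Epha10, a receptor without kinase activity, was at 307 and 453 units in TRAP and at 141 and 173 units in input (log2 fold change 1.26, SE 0.29, limma adjusted p = 0.0765). It passed under the same 3 alternatives as Sema4g, with a limma adjusted p between 0.0421 and 0.0488. Epha7, another receptor of ephrin-A ligands, was the exception of the family. It was at 180 and 189 units in TRAP and at 210 and 228 units in input (log2 fold change -0.25, SE 0.06, limma adjusted p = 0.0852), and it passed as lower after quantile normalization (-0.53, limma adjusted p = 0.0384) and centring (-0.66, limma adjusted p = 0.0201) but reversed to 0.27 with the mean of all its probe sets.

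Among the ephrin-A ligands Efna2 stood lowest in TRAP relative to input. It was at 224 and 123 units in TRAP and at 421 and 587 units in input (log2 fold change -1.58, SE 0.46, limma adjusted p = 0.0939). Efna3 was at 214 and 153 units in TRAP and at 145 and 187 units in input, and Efna5 at 273 and 260 units in TRAP and at 233 and 267 units in input. Their log2 fold changes of 0.13 and 0.10 turned negative after quantile normalization (-0.13 and -0.24) and after centring (-0.28 and -0.31), so they have no settled direction.

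Among the EphB receptors, which bind the transmembrane ephrin-B ligands, Ephb3 fell. It was at 9.75 and 6.47 units in TRAP and at 121 and 144 units in input, lower by a factor of 2.64 or more (limma adjusted p = 0.0097). It lost its call without input replicate 1 or 2 (limma adjusted p = 0.0739 and 0.0800). Ephb1, which guides retinal axons at the chiasm, was at 263 and 140 units in TRAP and at 918 and 927 units in input, a log2 fold change of -2.26 (SE 0.42) that missed the threshold narrowly (limma adjusted p = 0.0522). It passed in 6 of 11 alternatives. These include the fits without TRAP replicate 2 or 4, where the spread is that of its 2 close input values alone. Ephb6, whose kinase domain is inactive, ran the other way. It was at 163 and 220 units in TRAP and at 129 and 131 units in input (log2 fold change 0.54, SE 0.20, limma adjusted p = 0.135). It passed only without TRAP replicate 2, where the spread is that of its 2 input values alone.

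The ephrin-B ligands were measured well above background. Efnb3, a midline ligand of growing corticospinal axons, was at 924 and 534 units in TRAP and at 1809 and 2601 units in input (log2 fold change -1.63, SE 0.44, limma adjusted p = 0.0852). Efnb2, also a marker of arterial vessels, was at 137 and 137 units in TRAP and at 260 and 445 units in input (log2 fold change -1.32, SE 0.36, limma adjusted p = 0.0852). Both passed only in some alternatives, with centring and in the fit of probe sets above background (limma adjusted p between 0.0217 and 0.0491), and Efnb2 also without either input array, where its identical TRAP values leave no spread. Efnb1 overlapped between the fractions, at 223 and 209 units in TRAP and at 133 and 231 units in input (log2 fold change 0.30, and -0.11 after centring).

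**Figure D3:**
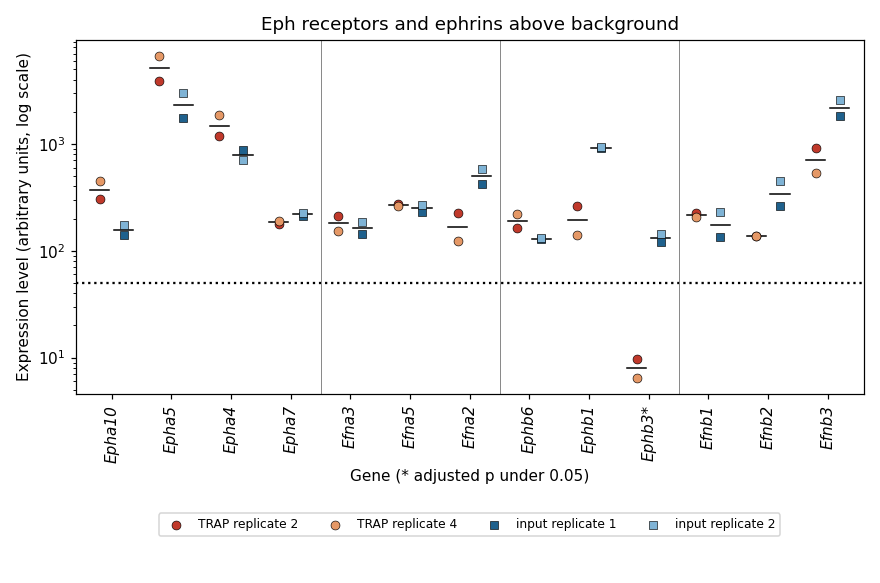
Expression level (vertical axis, arbitrary units, log scale) of the Eph receptors and ephrins above background on each array. Circles are TRAP, squares are input, short lines are means on the log scale, the dotted line is 50 units, vertical lines part the families and an asterisk marks an adjusted p under 0.05. Epha10, Epha5, Epha4 and Ephb6 have both TRAP arrays above both input arrays.

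Summed markers of other cells were at lower levels in TRAP beside these genes, but the brightest probe sets weigh most in such sums. In astrocytes 7 of 7 measured markers had both TRAP arrays below both input arrays, with summed levels of 6371 to 9504 units in TRAP and 23439 to 30591 units in input. This held for 5 of 6 oligodendrocyte, 2 of 2 precursor, 4 of 4 vascular, 2 of 4 microglial and 1 of 3 GABAergic markers above background, the others overlapping between the fractions. For oligodendrocytes the markers had sums of 31872 to 69030 units in TRAP and 73557 to 87406 units in input. Of these sums, Mbp alone gave 18665 to 41048 units in TRAP and 37197 to 41658 units in input. For oligodendrocyte precursors the sums were 227 to 743 units in TRAP and 2335 to 2670 units in input, for microglia 1331 to 2913 units in TRAP and 3406 to 4588 units in input, and for endothelial and mural cells 132 to 550 units in TRAP and 1359 to 1386 units in input. Of the measured markers above background, 2 of 7 in astrocytes, 0 of 6 in oligodendrocytes, 1 of 2 in precursors, 1 of 4 in microglia and 1 of 4 in vessels passed the test. Vascular Pecam1 and Flt1 and microglial Aif1 and C1qa lay under background on all 4 arrays. They and the precursor marker Cspg4, also not above background, are included in the sums. The GABAergic neuron markers summed to 2839 to 5960 units in TRAP and 5968 to 12865 units in input. On TRAP replicate 2 these lists stood higher than on TRAP replicate 4, in 6 of 7 astrocyte, 6 of 6 oligodendrocyte, 2 of 2 precursor, 4 of 4 microglial and 4 of 4 vascular markers above background. Of the 8 members that fell, Plxnb1, Nrp1, Sema3c and Ephb3 were higher on TRAP replicate 2 by 0.59 to 0.79 log2 units. Sema3f, Sema6a and Sema3a were higher on it by 0.01 to 0.06, and Nrp2 was identical. Plxnb1, Sema3c, Ephb3, Sema6a and Sema3a were under background on both TRAP arrays. Of the larger gaps, only that of Nrp1 thus lies between levels above background. The part of other cells in the members' values was not tested, and fewer cells of a type and less RNA per cell cannot be told apart in such bulk samples.

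Several members are measured by more than 1 probe set, which gives a view of a gene that the choice of the brightest did not use. Of 13 members with 2 or more probe sets above background, 8 had the same sign in all of them. Among the genes that fell, Sema3a, Sema3c, Sema3f and Sema6a have 2 or 3 probe sets, only 1 of them above background. For Epha5 all 4 were positive, and 1 of them was at 197 and 197 units in TRAP and at 33.7 and 33.3 units in input, at least 3.93-fold higher and past the threshold. Its TRAP values are identical. In Plxna2 the 4 probe sets ran between log2 fold changes of -2.17 and 0.23, and in Epha7 and Sema4d 1 dimmer probe set passed in the direction opposite to that of the brightest. That of Sema4d was at 162 and 163 units in TRAP and at 139 and 139 units in input, its input values being identical. Efna3 (log2 fold changes of 0.13 and -0.61) and Sema4a (-0.09 and 0.36) also differed in sign between probe sets, without a call. The gene-level values of these 5 genes thus depend on the probe set.

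**Figure D4:**
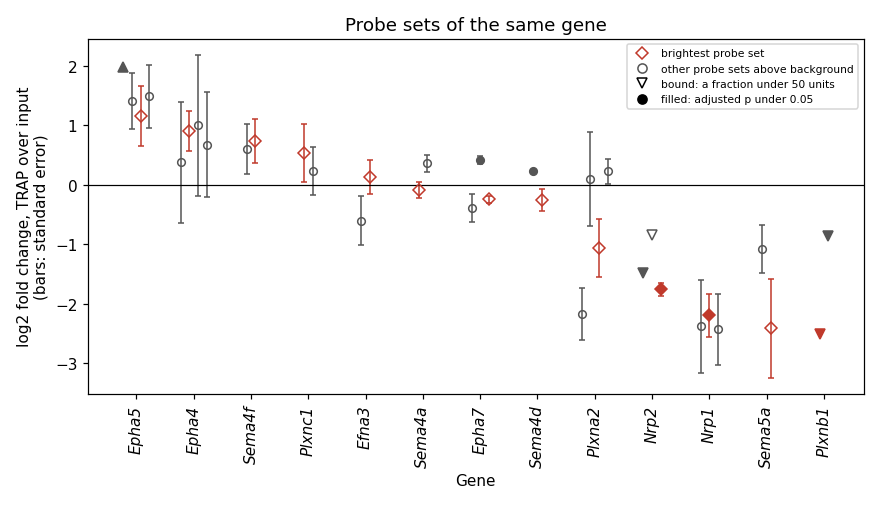
Log2 fold change of TRAP over input (vertical axis, bars are standard errors) for each probe set above background of the 13 genes with 2 or more of them. Diamonds are the brightest probe set, circles the others, triangles bounds against 50 units, and filled symbols passed an adjusted p of 0.05. The Nrp1, Nrp2 and Plxnb1 probe sets all lie below 0 and the Epha5 and Epha4 probe sets all above it.

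The 13 members not above background were low in both fractions. Of these, Sema3b, Sema3d, Sema3g, Plxnd1, Plxna4os1, Epha1, Epha2, Epha6, Epha8, Efna1, Efna4 and Ephb4 lay under 50 units on all 4 arrays, and no fold is given for them. Sema3d came nearest, at 7.35 and 4.84 units in TRAP and at 39.7 and 48.3 units in input. Sema3b and Epha6 ran the other way. Sema3b was at 44.1 and 32.1 units in TRAP and at 17.9 and 18.0 units in input. Epha6 was at 17.3 and 42.9 units in TRAP and at 8.31 and 8.31 units in input. Epha3 was at 41.0 and 60.5 units in TRAP and at 43.4 and 15.4 units in input.

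Genes that work with these families were taken from a list of 55, of which 49 were above background. Of the 49, 6 rose (12.2%) and 1 fell (2.04%), beside 18.7% and 6.87% of all genes. Their median log2 fold change was 0.04. Within the list, 5 of 21 genes of semaphorin and plexin signalling rose and 0 fell (2 lower before adjustment in limma, p under 0.05), 1 of 24 genes of Eph and ephrin signalling rose and 1 fell, and 0 of 4 co-receptors and adhesion partners passed (0 also before adjustment in limma).

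Rnd1, a small GTPase that binds plexins, was at 351 and 337 units in TRAP and at 92.6 and 60.6 units in input (log2 fold change 2.20, SE 0.29, limma adjusted p = 0.0278). Nck1, an adaptor recruited by activated Eph receptors, was at 84.5 and 92.7 units in TRAP and under background in input, at least 1.77-fold higher (limma adjusted p = 0.0368). Limk2, a kinase of cofilin, was at 801 and 1022 units in TRAP and at 316 and 367 units in input (log2 fold change 1.41, limma adjusted p = 0.0303). These 3 genes did not overlap between the fractions.

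Arhgef11, whose protein binds class B plexins, was at 388 and 519 units in TRAP and at 201 and 191 units in input (log2 fold change 1.20, limma adjusted p = 0.0425). Cdk5, a kinase of the Sema3a response, was at 1128 and 1325 units in TRAP and at 496 and 621 units in input (log2 fold change 1.14, limma adjusted p = 0.0411). Dpysl5, a collapsin response mediator protein, was at 92.5 and 97.0 units in TRAP and under background in input, at least 1.89-fold higher (limma adjusted p = 0.0457). The gene that fell was Sipa1l1, a Rap GTPase-activating protein (log2 fold change -0.42, SE 0.05, limma adjusted p = 0.0245), named after its values were seen because it was the only one. Without TRAP replicate 2 only Arhgef11 of the 6 still passed, and without TRAP replicate 4 0 of the 6 did.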

How the data were processed

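RNA was hybridized by the authors to Affymetrix mouse arrays after amplification in 2 cycles. The deposited log2 values were made by the authors with GCRMA (version not given in the sources used here), 1 value per probe set and array, and which arrays were normalized together is not known. Many dim probe sets hold identical values within a fraction, for which limma's p is not informative. Their p-values still enter the adjustment over all probe sets. The adjusted p of 0.0852 of Epha7, Efnb2 and Efnb3 is shared with such dim probe sets. In the fit of probe sets above background only, limma gave them an adjusted p of 0.369, 0.0491 and 0.0429. Above background, 5 of the 40 members and 484 of all 10014 genes also hold identical values in a fraction.

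After 64 control probe sets were left out, 45037 were fitted with limma 3.58.1 in R 4.3.3 (1 coefficient, TRAP minus input, empirical Bayes variance, 2-sided, 2 residual degrees of freedom). The platform annotation gave 34945 of them 1 gene symbol, 932 several and 9160 none, and all 53 members were matched to RefSeq by gene identifier. Close relatives that share probes cannot be told apart. The number of arrays limits the precision. Members, gene lists, background and tests were chosen with earlier results of these data known. Genes were named in this order: members past the threshold, then for each family the 2 brightest and the 2 with the largest change, then 6 of the partner list. On simulated data with known changes the fit recovered sizes and directions, but called few of the changed probe sets, so a missed threshold does not show that a gene did not change. Alternatives were quantile normalization, centring on bright probe sets, values under 50 units raised to 50, a fit of probe sets above background only, a background of 100 units, an intensity trend, control probe sets kept, each gene as the average of its probe sets, a threshold of 0.01, and each array left out in turn.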

Additional observations from a re-analysis of the deposited data

How the results depend on the processing

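No paired analysis was possible because the fractions share only replicate number 2. The 8 lower members became 16 with centring, 13 in the fit above background, 2 with values raised to 50 and 4 at a threshold of 0.01. In every fit with 1 array left out, some of the 8 lost their call and other members gained one. The count of 0 higher members became 2 with centring, in the fit above background and with an intensity trend, 1 with values raised to 50 and with probe sets averaged per gene, and ran from 0 to 3 with 1 array left out. With values raised to 50, limma reported its variance prior as unreliable. With 1 array left out, the spread is that of the 2 arrays of the other fraction alone. Calls kept or lost there follow largely how close those 2 values lie.

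Partner genes, 6 higher and 1 lower, became 2 and 2 after quantile normalization, 11 and 12 with centring, 11 and 4 above background, 11 and 5 with a trend. Values raised to 50 gave 1 higher, and the mean of all probe sets 4 lower. Leaving out 1 array gave 1 to 5 higher and 1 to 3 lower. Probe sets above background, 3213 higher and 1559 lower, became 824 and 467 with values raised to 50 and 944 and 632 at 0.01, and the lower ones 3867 with centring and 1006 at a background of 100 units. Leaving out 1 array gave 1340 to 2652 higher and 842 to 1313 lower.

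Of 319 values of named members, 255 kept direction and side of the threshold, 22 lost a call, 31 gained one and 11 reversed. Efna3 reversed to -0.13 after quantile normalization, -0.28 with centring, -0.24 with the mean of all probe sets, -0.11 without TRAP replicate 2 and -0.05 without input replicate 1 (0.38 at most with 1 array left out). Efna5 reversed to -0.24, -0.31 and, without input replicate 1, -0.0023 (0.20 at most with 1 array left out). Efnb1 reversed to -0.11 with centring and -0.10 without input replicate 1 (0.69 at most with 1 array left out), and Epha7 to 0.27 with the mean of all probe sets. The causes were not tested. With 2 pools a fraction, even differences above the spread between pools were often not called. The log2 fold change exceeded the gap between the arrays of either fraction in 25 of the 40 members, and 8 passed.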

Other observations

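Ligands and receptors of the same pair were not always on the same side. Sema3f and its co-receptor Nrp2 were both lower in TRAP past the threshold, and so were Sema3a and Nrp1. Plxnb1 fell while its ligand Sema4d overlapped between the fractions. Sema6d and Plxna1 both had positive log2 fold changes (1.37 and 1.66), neither past the threshold. These pairs share arrays, and no test was made of a pair.

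The difference between the input arrays ran through nearly all families. Input replicate 2 was the higher one for 11 of 13 membrane semaphorins, 7 of 8 plexins and 12 of 13 Eph and ephrin genes above background, but for 0 of 4 class 3 semaphorins (replicate 1 higher in 3, identical in Sema3f). Input replicate 2 was also the higher one for 6 of 7 astrocyte markers, 4 of 6 oligodendrocyte markers, 2 of 2 precursor markers and 3 of 4 microglial markers above background, but for 1 of 4 vascular and 0 of 3 GABAergic markers. The astrocyte markers summed to 23439 units on input replicate 1 and 30591 units on input replicate 2, and the GABAergic markers to 12865 and 5968 units in the same order. Among the partner genes input replicate 2 was higher for 29 and input replicate 1 for 18. Between the TRAP arrays, replicate 2 was higher for 20 members and replicate 4 for 16. This was seen after the values were known and was not tested.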
